A study of Homo sapiens with 15 samples.

Results

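The genes examined were 10 of glucose transport and hexose response. They were the α-arrestin genes TXNIP and ARRDC4, the genes of the transcription factor pair MondoA (MLXIP) and MLX, and genes of the SLC2A family. In that glucose transporter family, SLC2A1, SLC2A3, SLC2A8, SLC2A10 and SLC2A12 encode the facilitative carriers GLUT1, GLUT3, GLUT8, GLUT10 and GLUT12. SLC2A13 encodes the proton-coupled myo-inositol carrier HMIT. The 10 genes were chosen by name, and each was found through the platform annotation. Where a gene has several transcript clusters, the brightest was to be used, but each of the 10 had a single one. All 10 were among the 16872 genes tested, of 18417 with a symbol of their own.

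RNA came from MH7A, an established human synovial cell line immortalised with a viral T antigen, and was hybridised to 15 arrays. There were 5 conditions and 3 separate experiments, and every experiment supplied 1 array per condition. Resting cells received no agent. IL-1β was given at 15 pg/ml for 13 h, alone or with GlcN (glucosamine), with GlcN and alloxan, or with alloxan. GlcN was present at 5 mM from 2.5 h before IL-1β, for 15.5 h in all. Cells given alloxan, which the study used against the O-GlcNAc transferase OGT, met a first dose of 5 mM over 30 min and a lasting dose of 2 mM. GlcN and alloxan were therefore tested in stimulated cells only.

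MondoA, bound to MLX, responds to phosphorylated hexoses, chiefly glucose 6-phosphate: it moves to the nucleus and binds carbohydrate response elements, which are paired E-box-like hexamers with a short spacer. TXNIP and ARRDC4 are its best known targets. Both proteins lower glucose uptake by drawing GLUT1 off the cell surface, which closes a feedback loop, and TXNIP also binds thioredoxin. GlcN itself enters cells through glucose transporters and is phosphorylated by hexokinases. Alloxan resembles a sugar in shape, is known to inhibit glucokinase and undergoes redox cycling.

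The promoter windows of both target genes are shown because these genes are known for one kind of element and differed in their order of conditions below. Whether the windows bear on that difference was not tested. The windows are the 250 bases before a start in RefSeq, assembly GRCh38.p14, printed in the direction of the gene, with each CACGNG hexamer, read on either strand, in capitals. The TXNIP window is chr1:145996580-145996829 on the minus strand, and the ARRDC4 window is chr15:97960453-97960702 on the plus strand.
TXNIP: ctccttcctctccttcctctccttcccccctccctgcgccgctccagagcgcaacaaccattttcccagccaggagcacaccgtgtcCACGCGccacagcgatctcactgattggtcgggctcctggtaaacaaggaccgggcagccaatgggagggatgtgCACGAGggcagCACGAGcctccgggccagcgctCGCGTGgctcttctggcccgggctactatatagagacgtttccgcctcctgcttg
ARRDC4: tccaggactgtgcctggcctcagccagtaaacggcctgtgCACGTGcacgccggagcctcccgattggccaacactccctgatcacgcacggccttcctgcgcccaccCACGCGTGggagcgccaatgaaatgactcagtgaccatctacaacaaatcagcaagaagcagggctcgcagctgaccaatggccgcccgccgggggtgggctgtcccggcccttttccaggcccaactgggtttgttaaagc
TXNIP held 4 such hexamers, and one pair of them, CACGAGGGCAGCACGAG from -88 to -72 of the start, had the same orientation with 5 bases between. ARRDC4 held 3, of which CACGTG lay from -210 to -205 and the other 2 overlapped from -142 to -135, with no pair at that spacing. Of 35116 RefSeq windows of this length, 26.7% held a CACGNG hexamer and 6.34% the palindrome CACGTG. A pair of CACGNG hexamers with 5 bases between, in the same or opposite orientations, was held by 0.0655%. MLX and SLC2A13 each held a CACGTG, and the windows of MLXIP, SLC2A1, SLC2A8, SLC2A10 and SLC2A12 held no CACGNG. A second RefSeq start of TXNIP held none in its window. Windows were at hand for 9 of the 10 genes. These are matches of letters, not sites shown to be bound. Pairs with a looser hexamer or outside the windows were not searched for.

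Signals are log2 values of the RMA summary, and a difference of 1 is a factor of 2. The 3 experiments sat at different levels, with array medians from 6.18 to 6.21, from 7.14 to 7.19 and from 7.49 to 7.54, so conditions are compared within an experiment. Each difference is given as the mean of the 3 within-experiment differences ± SD (n = 3), and p-values come from limma with the experiment as a block over all 15 arrays, adjusted by Benjamini-Hochberg over the 16872 genes. A gene passed at an adjusted p under 0.05. These calls rest on the block and on the spread shared by all 5 conditions. By adjusted p, 0 of the 10 genes passed in any comparison without the block. The same held in the blocked fit restricted to the arrays of each comparison, and in the study's unpaired test after adjustment. The study itself applied no such adjustment and worked on values normalized further, and it listed SLC2A1 among the genes lowered by GlcN. Many signals were exactly equal between arrays of an experiment, in 54.1% of all sets of a gene and an experiment. Such equal values bear on ARRDC4, MLXIP, SLC2A3, SLC2A10, SLC2A12 and SLC2A14 below. Of 12 synovial fibroblast markers 4 (VIM, FN1, COL1A1 and CD44) stood above the 75th percentile of named genes on every array, while COL1A2, COL6A1, THY1, PDPN, CDH11, PDGFRB, FAP and PRG4 did not. None of 8 markers of leukocytes, endothelium or epithelium did.

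TXNIP and SLC2A3 were higher with alloxan, ARRDC4 and SLC2A1 were lower with GlcN, and SLC2A8 was slightly higher in both conditions with alloxan. The other 5 genes passed in no comparison. For GlcN against IL-1β alone 2 of the 10 genes fell, when 6.62% of all genes tested fell, and 0 rose, when 5.29% did. For alloxan 3 of 10 rose against 6.13% of all genes and 0 fell against 7.21%. With both agents 2 rose and 1 fell, against 9.06% and 8.47% of all genes. Alloxan added to GlcN raised 3 of 10 against 3.27% of all genes and lowered 0 against 3.52%. GlcN added to alloxan lowered 1 against 1.67% and raised 0 against 1.86%. With 10 genes, the smallest share above 0 is 1 in 10, so a single call says little beside any of these backgrounds. IL-1β against resting cells gave 0 calls among the 10 and among all genes, 0% in each direction, in limma with the block, although 977 genes and 2 of the 10 had an unadjusted p under 0.05. The 10 genes had a median difference of -0.07 for GlcN and 0.12 for alloxan added to GlcN, beside 0.01 and -0.01 over all genes. For alloxan the medians were 0.005 and 0.015.

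**Figure D1:**
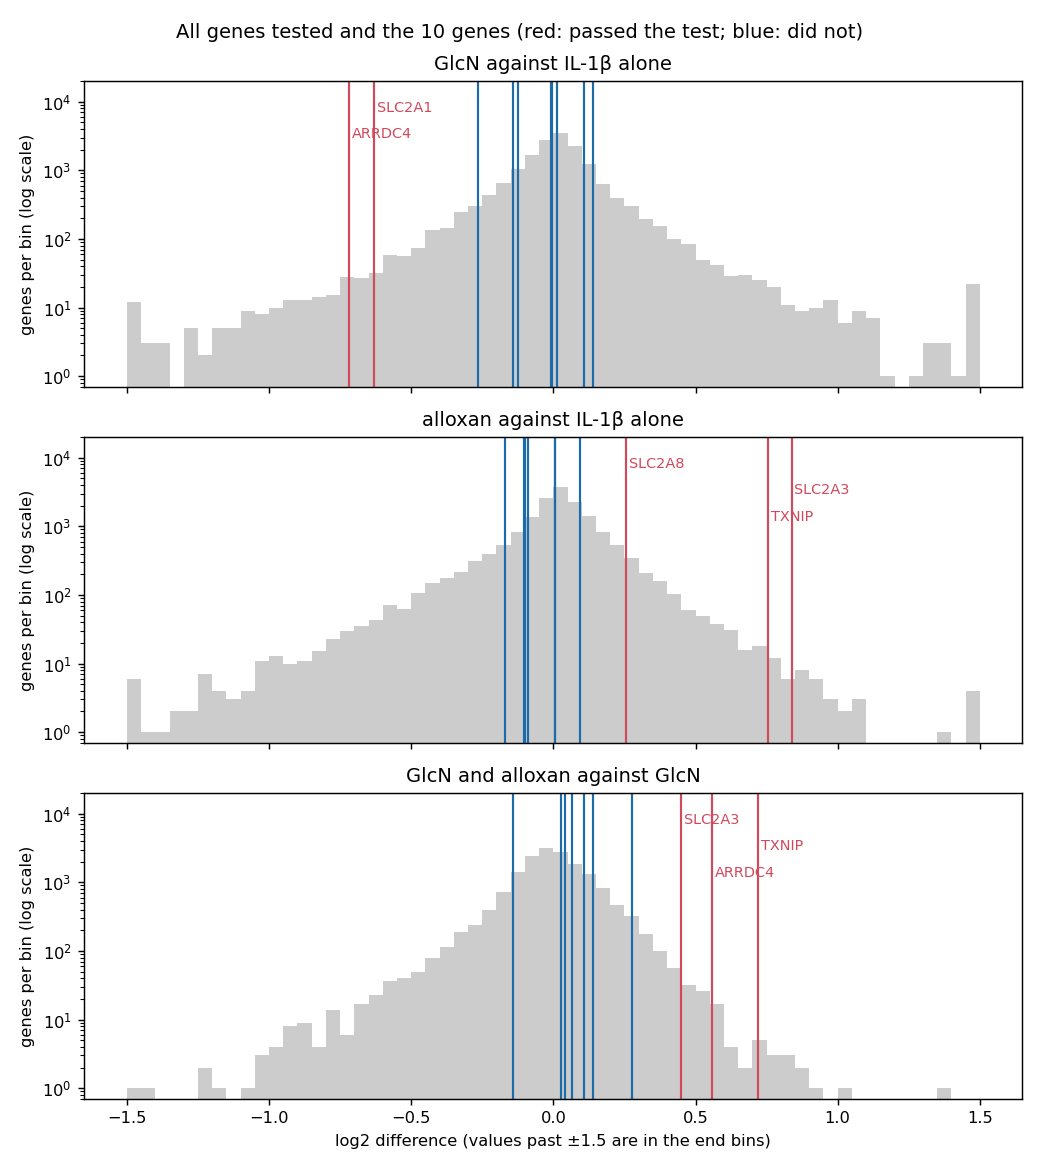
Each panel counts all 16872 genes tested by their log2 difference in bins (grey bars, log scale) for GlcN against IL-1β alone, alloxan against IL-1β alone, and GlcN with alloxan against GlcN. Vertical lines are the 10 genes, red where they passed (adjusted p under 0.05) and blue where they did not. ARRDC4 and SLC2A1 lie at -0.72 and -0.63 with GlcN, and TXNIP and SLC2A3 at 0.76 and 0.84 with alloxan.

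TXNIP was raised by alloxan both without and with GlcN, and its difference with GlcN alone was smaller than the spread between experiments. In a bulk extract, fewer cells with a transcript and less of it per cell cannot be told apart. With IL-1β alone its signal was 9.93, 10.95 and 10.75 in experiments 1, 2 and 3. With GlcN it was 10.03, 10.98 and 10.66. These 2 conditions overlapped, with GlcN higher in 2 of the 3 experiments. With alloxan the signal was 10.69, 11.63 and 11.58, and with both agents it was 10.68, 11.52 and 11.63. Within every experiment both conditions with alloxan stood above the other 3. Alloxan raised TXNIP 1.69-fold (0.76 ± 0.08, adjusted p = 0.000115), and both agents together raised it 1.66-fold over IL-1β alone (0.73 ± 0.15, adjusted p = 6.26e-05). Added to GlcN, alloxan raised it 1.65-fold (0.72 ± 0.22, adjusted p = 0.000423). These 3 calls held without each single array and without each experiment. The difference with GlcN was 0.01 ± 0.10 (95% interval -0.15 to 0.18), and that of GlcN added to alloxan was -0.02 ± 0.08 (-0.19 to 0.14). The GlcN by alloxan interaction was -0.04 ± 0.15, with an interval from -0.27 to 0.20.

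Resting cells held an intermediate level of TXNIP, at 10.22, 11.33 and 11.03. IL-1β alone was below resting cells in all 3 experiments (-0.32 ± 0.06), with an unadjusted p of 0.00131 that did not survive adjustment (limma, adjusted p = 0.516). The order of the 5 conditions was therefore alloxan, alloxan with GlcN, resting, GlcN and IL-1β alone. Alloxan with GlcN exceeded resting by 0.42 ± 0.21 in 3 of 3 experiments, and resting exceeded GlcN by 0.30 ± 0.10 in 3 of 3, comparisons that were not tested. The first and second conditions differed by less than their spread, and so did the last 2.

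**Figure D2:**
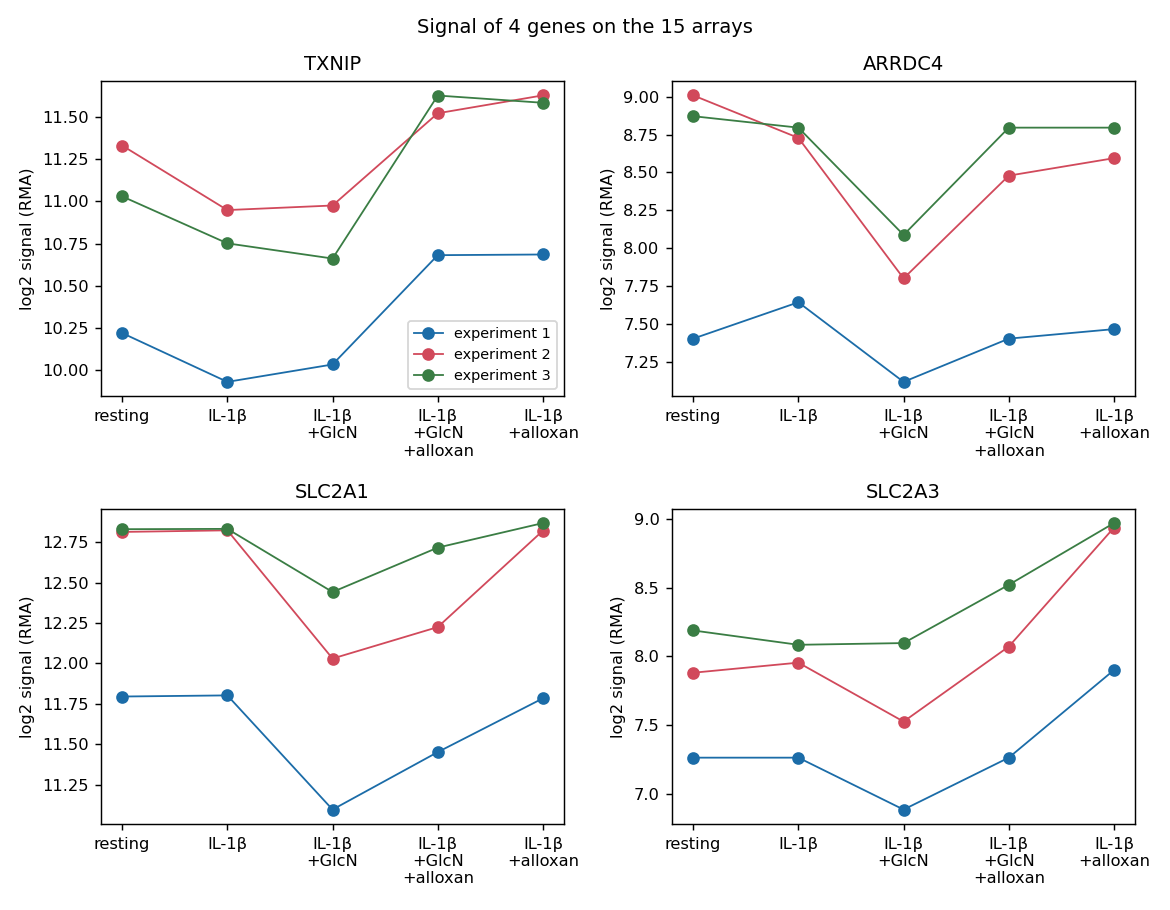
Log2 signal of TXNIP, ARRDC4, SLC2A1 and SLC2A3 (vertical axes) in the 5 conditions (horizontal axes). Each point is 1 array and a line joins the 5 arrays of an experiment. In each experiment TXNIP is highest in both conditions with alloxan, ARRDC4 and SLC2A1 are lowest with GlcN, and SLC2A3 is highest with alloxan and no GlcN.

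ARRDC4, the other target, had another order of conditions. It fell with GlcN and rose when alloxan was added to GlcN, while alloxan without GlcN gave a difference that did not pass. Its signal was 7.64, 8.73 and 8.80 with IL-1β alone and 7.12, 7.80 and 8.09 with GlcN, so that the array with GlcN was the lowest of the 5 in every experiment. With alloxan it was 7.47, 8.59 and 8.80, and with both agents it was 7.40, 8.48 and 8.80. In experiment 3 the arrays with IL-1β alone, with alloxan and with both agents held the same value. GlcN lowered ARRDC4 to 0.607 of its level with IL-1β alone (-0.72 ± 0.20, adjusted p = 0.0036). The call held without each single array. Without experiment 2 or experiment 3 the adjusted p was 0.0515 and 0.0921.

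When alloxan was added to GlcN, ARRDC4 was 1.47-fold higher than with GlcN (0.56 ± 0.24, adjusted p = 0.0233). This call was lost without the array of GlcN in experiment 2 or 3, or the array of both agents in experiment 1, 2 or 3, with adjusted p from 0.0512 to 0.112, and without experiment 2 or 3, with 0.115 and 0.343. Alloxan without GlcN gave -0.10 ± 0.09 (interval -0.38 to 0.17, adjusted p = 0.691), and both agents against IL-1β alone gave -0.16 ± 0.14 (adjusted p = 0.467). GlcN added to alloxan gave -0.06 ± 0.06, with an interval from -0.33 to 0.21. The interaction, the amount by which alloxan changed the GlcN effect, was 0.66 ± 0.18 and positive in 3 of 3 experiments, with an interval from 0.27 to 1.05 and an unadjusted p of 0.00314, but it did not pass (limma, adjusted p = 0.245). Resting cells, at 7.40, 9.01 and 8.87, lay above IL-1β alone in 2 experiments and below it in 1. The condition with GlcN came last in the order of ARRDC4, by 0.56 ± 0.24 below both agents, and the other 4 conditions differed from their neighbours by at most 0.10 ± 0.09.

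The 2 targets were set against each other on the same arrays as the change of TXNIP minus the change of ARRDC4. That difference was 0.73 ± 0.19 for GlcN, 0.86 ± 0.06 for alloxan and 0.90 ± 0.09 for both agents, and it was positive in 3 of 3 experiments each time. For alloxan added to GlcN, where both genes rose, it was 0.16 ± 0.26 and positive in 2 of 3. These values carry no test. Over the 15 arrays, with each experiment centred on its mean, TXNIP and ARRDC4 correlated at r = 0.34, a description over arrays that share their experiments.

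The genes of the factors themselves passed no test. MLXIP, which encodes MondoA, read at percentiles 88.8 to 93.4 of all 33297 transcript clusters on its array, and MLX at 88.8 to 91.8. Neither passed in any of the 7 comparisons. With IL-1β alone MLXIP stood at 9.79, 10.93 and 11.47, and with GlcN at 9.56, 10.93 and 11.32. The array with GlcN equalled IL-1β alone in experiment 2 and was lower in the other 2. In experiment 2 the arrays of resting cells and of alloxan held that same value as well. MLXIP shared its value with another array of its experiment on 9 of 15 arrays, which limits what its differences show. MLX stood at 9.75, 10.99 and 10.98 with IL-1β alone, at 9.70, 10.72 and 10.88 with GlcN, and at 9.75, 10.83 and 10.87 with alloxan. Over both factors and SLC2A10, SLC2A12 and SLC2A13, the 5 genes without a call, the mean differences ran from -0.14 to 0.11 with GlcN, from -0.17 to 0.09 with alloxan and from -0.15 to 0.15 with both agents. Their 95% intervals reached from -0.34 to 0.27 in these 3 comparisons, and the smallest adjusted p was 0.0925. The arrays measure transcript, not where a factor sits in the cell.

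**Figure D3:**
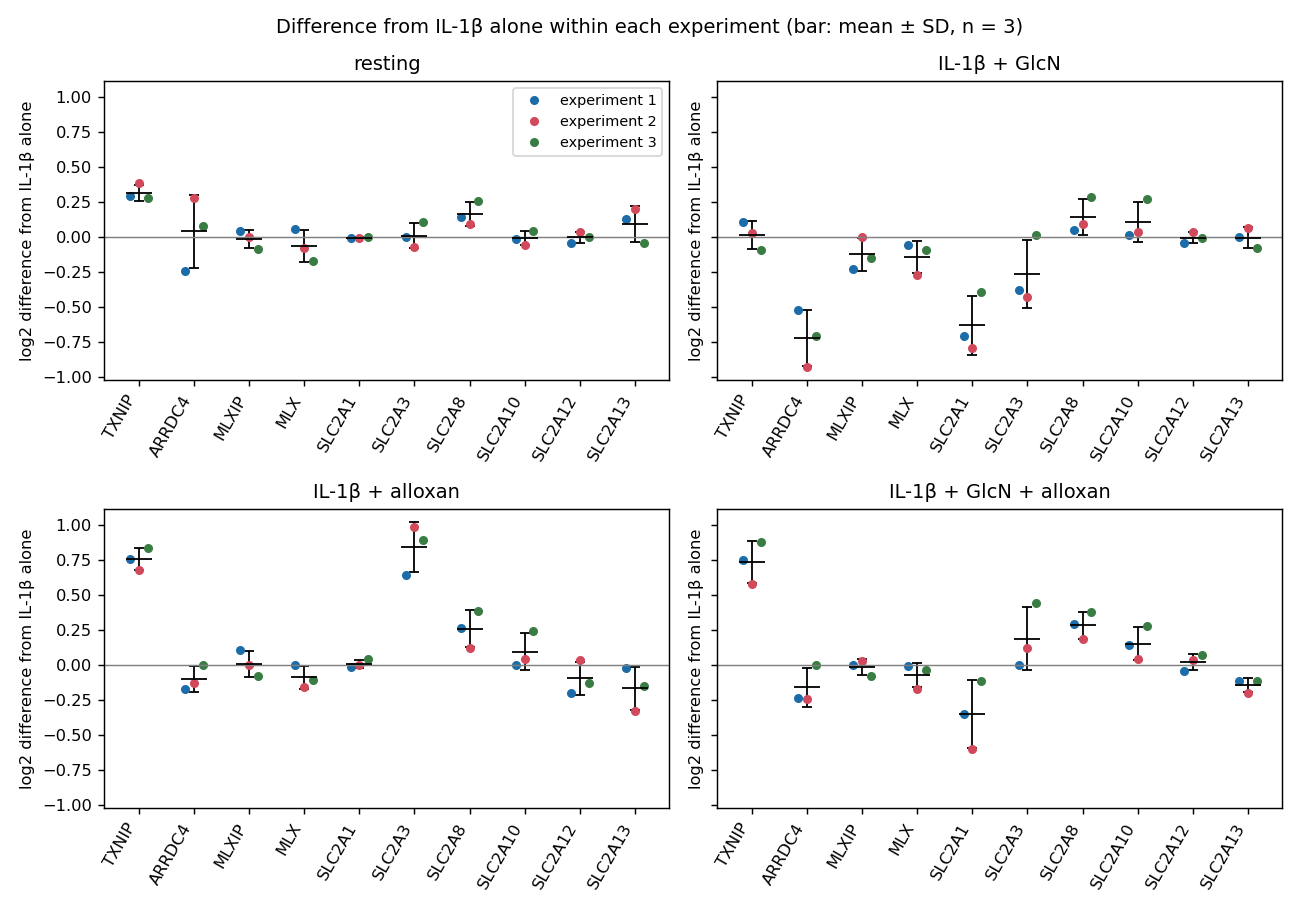
Log2 difference of each of the 10 genes from IL-1β alone in the same experiment (vertical axis), for resting cells and for the 3 conditions with GlcN, alloxan or both. Coloured points are the 3 experiments, and black bars are their mean ± SD (n = 3). The points of ARRDC4 and SLC2A1 lie below 0 in every experiment with GlcN, those of TXNIP and SLC2A3 above 0 in every experiment with alloxan.

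SLC2A1 encodes GLUT1, the main carrier of basal glucose uptake, and was the brightest of the 10 genes, at percentiles 96.4 to 98.7 of all clusters. GlcN lowered it, and the difference with alloxan alone was close to 0. Its signal was 11.80, 12.82 and 12.83 with IL-1β alone, 11.10, 12.03 and 12.44 with GlcN, 11.45, 12.23 and 12.72 with both agents, and 11.78, 12.82 and 12.87 with alloxan. GlcN was lowest and both agents next lowest in every experiment, and the other 3 conditions lay close together. GlcN lowered SLC2A1 to 0.646 of IL-1β alone (-0.63 ± 0.21, adjusted p = 0.00106), a call kept without each single array and lost without experiment 1 (0.0661). With both agents it was at 0.782 of IL-1β alone (-0.36 ± 0.24, adjusted p = 0.0182). That call was lost without the IL-1β array of experiment 1 (0.0639) or 2 (0.0886) and without the array of both agents in experiment 2 (0.0922). It was also lost without experiment 1 or 2 (0.18 to 0.208).

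Alloxan left SLC2A1 within 0.01 ± 0.03 of IL-1β alone, with an interval from -0.19 to 0.20, and resting cells, at 11.80, 12.81 and 12.83, were as close. Added to GlcN, alloxan gave 0.28 ± 0.08, positive in 3 of 3 experiments (adjusted p = 0.0946), and GlcN added to alloxan gave -0.36 ± 0.22, negative in 3 of 3 (adjusted p = 0.0536). Neither passed. The second of these did pass with a filter at the 50th percentile (adjusted p = 0.0338), with quantile normalization (0.0281) and with an intensity trend (0.0422), and without the array of GlcN (0.0431) or of both agents (0.0384) in experiment 3. The first passed without the array of both agents in experiment 2 (0.0405). The interaction was 0.27 ± 0.09 (interval -0.01 to 0.55, adjusted p = 0.464). Between both agents and GlcN alone the step of 0.28 exceeded its spread, and so did the step of 0.35 ± 0.24 from resting to both agents.

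SLC2A3 encodes GLUT3, a high-affinity glucose transporter. It rose with alloxan, both without and with GlcN, and GlcN added to alloxan lowered it. The signal was 7.26, 7.96 and 8.09 with IL-1β alone and 7.90, 8.94 and 8.97 with alloxan, the highest of the 5 conditions in every experiment. With GlcN it was 6.88, 7.53 and 8.10, and with both agents 7.26, 8.07 and 8.52. Resting cells stood at 7.26, 7.88 and 8.19, and in experiment 1 resting cells, IL-1β alone and both agents held the same value. Alloxan raised SLC2A3 1.79-fold (0.84 ± 0.18, adjusted p = 0.000405), a call kept without each single array and each experiment. Added to GlcN it raised SLC2A3 1.37-fold (0.45 ± 0.09, adjusted p = 0.0229). This second call was lost without the array of GlcN in experiment 2 (0.101) or the array of both agents in experiment 2 (0.0577) or 3 (0.113), and without any 1 of the 3 experiments (0.0982 to 0.154).

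In the presence of alloxan GlcN lowered SLC2A3 to 0.636 of its level (-0.65 ± 0.21, adjusted p = 0.00454), a call kept without each single array and lost without any 1 of the 3 experiments (adjusted p from 0.0535 to 0.126). GlcN against IL-1β alone gave -0.27 ± 0.24 (adjusted p = 0.12), lower in 2 of 3 experiments, and both agents gave 0.19 ± 0.23 (adjusted p = 0.266). The interaction was -0.39 ± 0.11, negative in 3 of 3, with an interval from -0.70 to -0.08 and an unadjusted p of 0.0192 (limma, adjusted p = 0.374). On the same arrays, the change of SLC2A3 minus that of SLC2A1 was 0.83 ± 0.17 with alloxan and 0.37 ± 0.04 with GlcN, where both mean differences were below 0 and that of SLC2A1 was the larger in size. The interaction of SLC2A3 minus that of SLC2A1 was -0.66 ± 0.04. Each of these held its sign in 3 of 3 experiments, and they carry no test. In order, alloxan stood above both agents by 0.65 ± 0.21, and both agents above resting by 0.18 ± 0.17 in 2 of 3 experiments, while resting and IL-1β alone differed by 0.01 ± 0.09.

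The signal of SLC2A3 cannot be fully separated from that of its near-identical copy SLC2A14, since probes may read both. SLC2A14 was higher with alloxan by 0.46 ± 0.15 (adjusted p = 0.032) and with alloxan added to GlcN by 0.49 ± 0.32 (adjusted p = 0.0363). The first call was lost without any of the 3 IL-1β arrays or the alloxan array of experiment 1 or 2, with adjusted p from 0.0802 to 0.132. The second was lost without the array of resting cells in experiment 1 or 3, IL-1β in 1, GlcN in 1 or 2, or both agents in 1 or 3, with adjusted p from 0.052 to 0.132. Leaving out experiment 1 or 2 also lost the first call (0.183 to 0.269). Leaving out any 1 of the 3 experiments lost the second (0.0516 to 0.252). The change of SLC2A3 with alloxan exceeded that of SLC2A14 by 0.38 ± 0.26, in 3 of 3 experiments. For GlcN added to alloxan, where SLC2A3 passed, SLC2A14 gave -0.29 ± 0.23 and did not pass (limma, adjusted p = 0.257). The interaction of SLC2A14 was 0.039 ± 0.235 (limma, adjusted p = 0.94).

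SLC2A8 encodes GLUT8, a transporter kept mostly on internal membranes. It was higher than with IL-1β alone by a small amount in both conditions with alloxan. The signal was 6.92, 7.90 and 8.12 with IL-1β alone, the lowest of the 5 conditions in every experiment. With alloxan it was 7.18, 8.02 and 8.51, and with both agents 7.21, 8.08 and 8.50. It rose 1.19-fold with alloxan (0.26 ± 0.13, adjusted p = 0.00923) and 1.22-fold with both agents (0.28 ± 0.10, adjusted p = 0.00353). Both calls were kept without each single array and lost without experiment 1 (0.0981 and 0.0566) or experiment 3 (0.134 and 0.0609). With GlcN, at 6.96, 7.99 and 8.41, it was higher in 3 of 3 experiments by 0.14 ± 0.13 (adjusted p = 0.118), which passed only when the GlcN array of experiment 1 was left out (0.19, adjusted p = 0.0487). Alloxan added to GlcN gave 0.14 ± 0.09 (adjusted p = 0.142), and GlcN added to alloxan gave 0.03 ± 0.04. The interaction was -0.12 ± 0.16 (adjusted p = 0.563). IL-1β was below resting cells, at 7.06, 7.99 and 8.38, in 3 of 3 experiments (-0.16 ± 0.09), with an unadjusted p of 0.0102 (limma, adjusted p = 0.666). In the order of SLC2A8, from both agents through alloxan, resting and GlcN to IL-1β alone, no step exceeded 0.14 ± 0.13.

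SLC2A10 encodes GLUT10, SLC2A12 GLUT12 and SLC2A13 HMIT, and none of them passed in any of the 7 comparisons. All 3 were dimmer than SLC2A1, the factors and TXNIP. SLC2A10 lay at percentiles 57.0 to 64.3 of all clusters, SLC2A12 at 48.3 to 54.3 and SLC2A13 at 64.7 to 71.1. SLC2A12 took the same value as another array of its experiment on 9 of 15 arrays. SLC2A13 was below IL-1β alone in all 3 experiments both with alloxan, at 7.39, 8.33 and 8.77 against 7.42, 8.66 and 8.92, and with both agents, at 7.30, 8.46 and 8.80. SLC2A10 was above IL-1β alone in 3 of 3 experiments with both agents, at 6.88, 8.22 and 8.58 against 6.74, 8.18 and 8.31. The differences of these 3 genes lay within the range given above for the genes without a call.

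**Figure D4:**
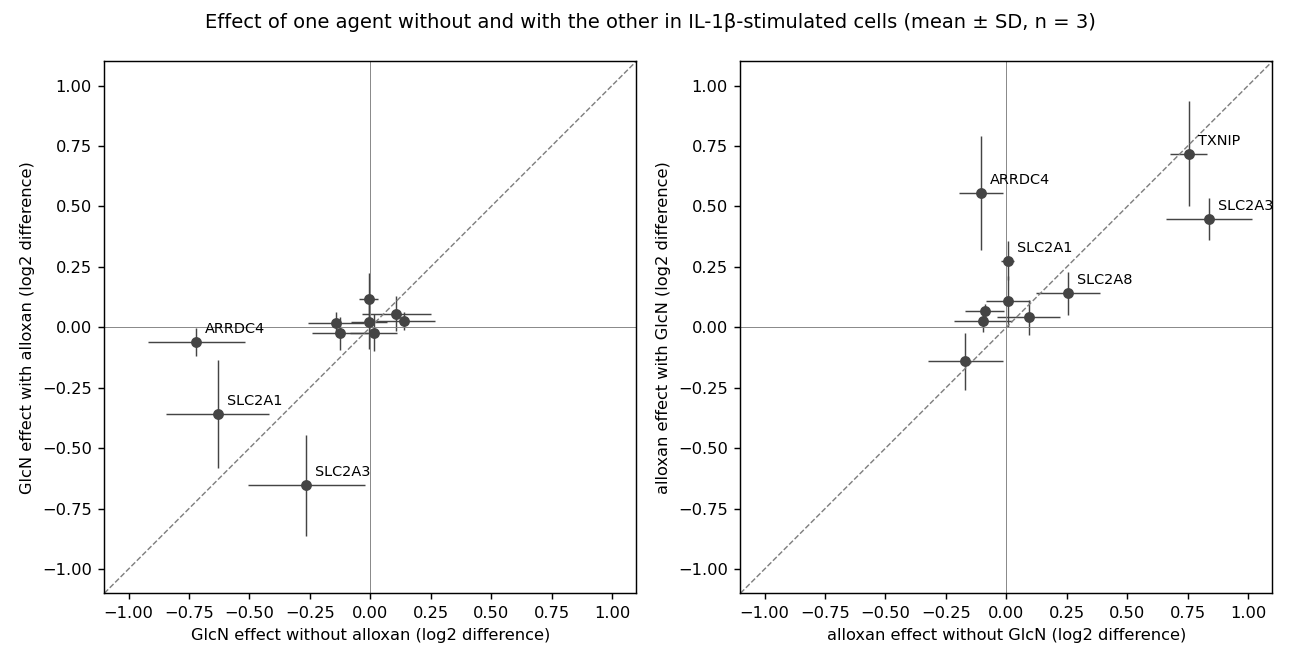
Left, the GlcN effect with alloxan (vertical axis) against the GlcN effect without it (horizontal axis), and right, the alloxan effect with GlcN against that without, as log2 differences in stimulated cells for the 10 genes. Points are means with SD bars (n = 3), the dashed line marks equal effects, and genes with a difference over 0.2 are named. TXNIP lies near the line on the right at 0.76 and 0.72, while ARRDC4 lies at -0.10 and 0.56.

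Whether one agent changed the effect of the other was tested for every gene by the interaction, and 0 of the 10 genes passed in either direction, beside 0.0119% of all genes that were higher and 0.0593% that were lower (limma with the block; 2 of the 10 had an unadjusted p under 0.05). The point estimates fell into patterns that differed in sign. For ARRDC4 and SLC2A1 the GlcN effect was smaller with alloxan present, at -0.06 and -0.36 against -0.72 and -0.63. For SLC2A3 it was -0.65 with alloxan present and -0.27 without. For TXNIP it was near 0 either way. With 3 experiments the intervals of these differences are wide, and a change of the GlcN effect by alloxan was not established for any of the 10.

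Around these genes, 7 lists of related genes were read in the same way. Of 7 other facilitative glucose transporter genes tested, SLC2A14 was the only one called, as given above. Of 7 sodium-coupled sugar and inositol transporter genes, SLC5A3, which brings myo-inositol into the cell, was lower with alloxan (-0.37 ± 0.03, adjusted p = 0.000914) and with both agents (-0.28 ± 0.08, adjusted p = 0.00307). No gene of either list passed with GlcN alone, when 5.29% of all genes rose and 6.62% fell. Of 5 genes of the thioredoxin system, which holds the binding partner of TXNIP, 0 passed in any comparison. Of 3 other α-arrestin genes tested, ARRDC1 was the only one called, lower with both agents. Over all genes, 6.13% rose and 7.21% fell with alloxan, 9.06% and 8.47% with both agents, and 3.27% and 3.52% with alloxan added to GlcN. Calls this few in lists this short do not stand apart from these shares.

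In the hexose phosphorylation list of 10 tested genes, HK2, the inducible hexokinase, was called most often. GlcN lowered it (-0.49 ± 0.11, adjusted p = 0.00371) and alloxan raised it by 0.36 ± 0.07 (adjusted p = 0.0168). Alloxan added to GlcN raised it by 0.38 ± 0.04 (adjusted p = 0.0227), and GlcN added to alloxan lowered it (-0.47 ± 0.20, adjusted p = 0.012). The GlcN call held without each single array. The alloxan call was lost without the IL-1β array of experiment 2 or 3 or the alloxan array of experiment 2 (adjusted p from 0.0554 to 0.0751), the call for alloxan added to GlcN without the GlcN array of experiment 2 or the array of both agents in experiment 1 or 3 (0.0799 to 0.11), and the last call without either of its arrays in experiment 2 (0.0582 and 0.0609). G6PC3, a glucose-6-phosphatase, rose with GlcN by 0.20 ± 0.03 (adjusted p = 0.0132). HK1 was lower with both agents (-0.25), where 8.47% of all genes fell. That call was lost without any 1 of 4 arrays (adjusted p from 0.0599 to 0.0998). With GlcN 2 of the 10 genes of the list fell and 1 rose, beside 6.62% and 5.29% of all genes. The second that fell, ADPGK, lost its call without any 1 of 11 arrays, all but the GlcN array of experiment 1, the array of both agents in experiment 2 or 3 and the resting array of experiment 2 (adjusted p from 0.0526 to 0.158).

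Of 11 genes of the MAX and MLX network, which holds the partners and rivals of MLX for the same DNA, 2 rose and 1 fell with GlcN, beside 5.29% and 6.62% of all genes. With alloxan 1 rose, beside 6.13%, and with both agents 3 rose and 1 fell, beside 9.06% and 8.47%. The 3 GlcN calls, of MYC, MYCL and MXI1, were each lost without the IL-1β array of experiment 2 or the GlcN array of experiment 2 or 3, and those of MYC and MXI1 also without the IL-1β array of experiment 1 (adjusted p from 0.0678 to 0.145). The call of MXI1 with both agents was lost without any 1 of 9 arrays, namely the alloxan array of each experiment, the IL-1β array of experiment 1 or 2, the array of both agents in experiment 1 or 3, the resting array of experiment 2 and the GlcN array of experiment 3 (0.0529 to 0.168). MYC was lower with both agents (-0.53 ± 0.25, adjusted p = 0.00122). It was also lower with GlcN added to alloxan (-0.40), where 1.67% of all genes fell, a call lost without any 1 of 4 arrays. MXD1, which pairs with MAX as a repressor, was higher with both agents by 0.71 ± 0.24 (adjusted p = 0.000481). MXD4, of the same family, rose with alloxan by 0.32 ± 0.06 (adjusted p = 0.00778) and with both agents by 0.34 ± 0.18 (adjusted p = 0.00322). MXD1 was also higher with alloxan added to GlcN (0.41), where 3.27% of all genes rose, a call lost without any 1 of 5 arrays. With GlcN added to alloxan it was higher by 0.40, where 1.86% of all genes rose, a call lost without any 1 of 12 arrays.

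Of 14 genes for the traffic and endocytosis of glucose transporters, TBC1D5, a Rab7 GTPase-activating protein that acts on the retromer sorting complex, changed most. It fell with alloxan to 0.504 of its level with IL-1β alone (-0.99 ± 0.09, adjusted p = 5.18e-05), with both agents to 0.612 (-0.71 ± 0.05, adjusted p = 0.000201), and with alloxan added to GlcN to 0.588 (-0.77 ± 0.18, adjusted p = 0.000584). The difference with GlcN was 0.06 ± 0.17. NEDD4L, a ubiquitin ligase, was lower with both agents (-0.39 ± 0.14, adjusted p = 0.00353), and RAB8A, a small GTPase of vesicle traffic, was lower with GlcN (-0.22 ± 0.04, adjusted p = 0.00657). NEDD4L was also lower with GlcN (-0.35), a call lost without the IL-1β or the GlcN array of experiment 2. PRKAA2 was higher with both agents (0.46), a call lost without any 1 of 11 arrays. Of the 14 genes, 2 fell with GlcN and 1 with alloxan, beside 6.62% and 7.21% of all genes. With both agents 1 rose and 2 fell, beside 9.06% and 8.47%, and 1 fell with alloxan added to GlcN, beside 3.52%. Over the 7 lists 28 calls were made on 15 genes besides SLC2A14, of which 13 held without each single array. Those for SLC5A3, G6PC3, MXD4 and TBC1D5 were among the 13. So were the calls of MYC, MXD1 and NEDD4L with both agents and that of RAB8A with GlcN. The 3 calls of TBC1D5 and that of MXD1 with both agents, 4 in all, also held without each experiment.

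The genes whose signal ran most closely with 3 of the 10 were found by Pearson's r over the 15 arrays, each experiment centred on its mean, among 16863 genes, and r is a description over arrays that share conditions. With TXNIP these were GINS3 (r = 0.958), PPM1D (0.952), SDE2 (0.945), TWSG1 (0.945) and SLC25A28 (0.941). With ARRDC4 they were OTULINL (0.957), CENPV (0.957), PPAT (0.952), ZBTB1 (0.95) and RAD54B (0.947). With SLC2A1 they were THY1 (0.961), SGK1 (0.961), ENO2 (0.96), LCMT2 (0.956) and SV2A (0.954). None of the 10 genes was among the nearest 5 of any of these 3. Within the 10, the closest pairs were ARRDC4 with SLC2A1 (r = 0.822), TXNIP with SLC2A8 (0.796) and TXNIP with SLC2A3 (0.741).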

How the data were processed

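RNA was hybridised to Affymetrix Human Gene 1.0 ST arrays. The deposited log2 values, with 1 value for each transcript cluster, had been made by the authors with RMA (Affymetrix Expression Console, version not given in the sources used here). Background correction and normalization are part of RMA and were kept as deposited. No detection call was used, and precision is limited by the number of arrays.

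Arrays were assigned to conditions and experiments from the titles. The experiment numbers were used to pair the arrays. Deviations from the group means correlated at 0.41 to 0.739 over 30 pairs with the same number. Over 75 pairs with different numbers the range was -0.662 to 0.0097. Centring a group on its 3 arrays pushes these latter values below 0 by itself. Whether the likeness within an experiment came from the cells or from their processing was not tested. No pair of arrays was a duplicate (highest correlation 0.996 over 105 pairs). Of 33297 clusters 19460 carried 1 symbol, 1754 several, which were not used, and 12083 no listed symbol, and 19429 were named through the gene ID in the RefSeq table of GRCh38.p14. The brightest cluster of a gene entered the tests if at least 3 of its values were at or above the 20th percentile, which left 16872 genes.

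Differences were tested in R 4.3.3 with limma 3.58.1 (two-sided, lmFit followed by eBayes) over 5 groups with the experiment as a block, 8 residual degrees of freedom and 11.14 after moderation, and the code was tested on simulated data. The study's own test was an unpaired t-test on values normalized further, which were not used here, so it was run as an alternative on the deposited values. The other alternatives were the fit without the block, with the block over the arrays of each comparison alone, filtering at the 50th percentile, no filter on dim genes, the mean of a gene's clusters, quantile normalization, a shift to equal medians, an intensity trend with robust moderation, and leaving out each array and each experiment. The genes, the 7 lists of related genes and the marker lists were chosen with earlier results of these data known. The text names all 10 genes, the called genes of each list, the 5 genes nearest to TXNIP, ARRDC4 and SLC2A1, and SLC2A14. Promoter windows came from RefSeq (GRCh38.p14). The motifs searched on both strands were CACGTG (the E-box, which CACGNG includes), CACGNG, a pair of the latter with 5 bases between, and CCAAT. The last was held by 32.0% of all windows and by both windows shown. The 2 hexamers of a pair could have the same or opposite orientations. Tables were read with pandas 2.3.3 in Python 3.11.15, and figures drawn with matplotlib 3.10.9.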

Additional observations from a re-analysis of the deposited data

How the results depend on the processing

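The calls on the 10 genes rested on the pairing of arrays by experiment and on the spread shared by all 5 conditions. With no replicate block, with the methods' t-test, and with the blocked fit restricted to the arrays of each comparison, 0 of them passed in any comparison, in place of 2 that fell with GlcN, 3 that rose with alloxan, 2 that rose and 1 that fell with both agents, 3 that rose with alloxan added to GlcN and 1 that fell with GlcN added to alloxan. The adjusted p was 1 without the block and in the methods' t-test, and from 0.0649 to 0.243 in the restricted fit. The 28 calls on genes of the related lists were likewise lost without the block and in the methods' t-test. Over all genes, the GlcN calls went from 893 higher and 1117 lower to 3 and 1 without the block and to 1 and 0 in the restricted fit, and the alloxan calls from 1034 and 1216 to 0 and 0 in both. The methods' t-test gave 51 genes for GlcN and 9 for alloxan at the unadjusted threshold of the study and 0 after Benjamini-Hochberg adjustment, and it could not be fitted for the interaction. The cause was not tested. Genes falling with GlcN added to alloxan were 2 in place of 1, with SLC2A1 added, under the filter at the 50th percentile, quantile normalization and the intensity trend. Among the 10 genes the counts were unchanged with no filter, the mean over clusters and the median shift. On the related lists, ADPGK (adjusted p = 0.122), ARRDC1 (0.053), HK1 (0.0561) and MXD1 with GlcN added to alloxan (0.0565) were lost under the median shift, and MXD1 (0.0541) and PRKAA2 (0.053) with no filter. ADPGK was also lost under quantile normalization (0.0633) and the intensity trend (0.0501). The difference of SLC2A1 with alloxan turned to -0.003 under quantile normalization.

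Leaving out single arrays or whole experiments, the counts ranged from 0 to 1 (rising with GlcN), 1 to 2 (falling with GlcN), 2 to 3 (rising with alloxan), 1 to 2 (rising with both agents), 0 to 1 (falling with both agents), 1 to 3 (rising with alloxan added to GlcN) and 0 to 2 (falling with GlcN added to alloxan). Of the 12 calls on the 10 genes, 9 held without each single array. Differences near 0 changed sign: SLC2A1 with alloxan from -0.059 to 0.058, SLC2A8 with GlcN added to alloxan from -0.013 to 0.049, and TXNIP with GlcN from -0.033 to 0.088, with GlcN added to alloxan from -0.101 to 0.058 and in the interaction from -0.12 to 0.045. An experiment left out leaves 10 arrays, which lowers the power of each test.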
